A study of Mus musculus with 6 samples.

Results

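The genes examined here are 6 genes known from olfactory sensory neurons, Omp, Gng13, Cnga2, Cnga4, Stoml3 and Rtp1. They were found by gene name among the 53801 genes of the adult brain count table, and all 6 were among the 23975 genes tested. RNA-seq compared 1 brain hemisphere from each of 3 Bahd1-WT and 3 Bahd1-KO mice. All were adult C57BL/6 mice of about 70 weeks, and the Bahd1-KO mice were homozygous (Bahd1-/-) offspring of heterozygous crosses, so the loss was not limited to the brain. Libraries are called WT 1 to WT 3 and KO 1 to KO 3 after the replicate numbers in their labels, and each was treated as a separate mouse. Totals ranged from 42297150 counts in KO 1 to 93557948 in KO 2, so 3 counts correspond to 0.0315 to 0.0690 CPM (counts scaled to a common library size). Bahd1 itself had 844 to 1383 counts in the Bahd1-WT libraries and 0, 14 and 1 in KO 1, KO 2 and KO 3, which matches the labels.

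Olfactory sensory neurons lie in the epithelium of the nose, outside the brain, and send their axons through the skull into the glomeruli of the olfactory bulb. An odorant receptor on the cilia activates a G protein containing Gnal and Gng13, adenylyl cyclase Adcy3 makes cyclic AMP, and a channel built from Cnga2, Cnga4 and Cngb1 opens. Omp is a cytoplasmic protein that marks the mature neurons, Rtp1 carries receptors to the cell surface, and Stoml3 is a membrane protein of the stomatin family found in their cilia. Some of these genes, Gng13 and Gnal among them, are also used by neurons within the brain. In bulk tissue, fewer cells of a type and less RNA per cell cannot be told apart.

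The 6 genes did not vary as a group. Omp differed 58.3-fold between Bahd1-WT libraries and 63.0-fold between Bahd1-KO libraries, and was high in WT 1, KO 1 and KO 2 and low in WT 2, WT 3 and KO 3. Stoml3 ranked the libraries as Omp did, with smaller ratios, though its neighbouring steps from KO 2 down were within counting error. Cnga2 shared the high WT 1 and KO 1 libraries and the low KO 3, and KO 2 came next but near WT 2 and WT 3. Gng13 was far the most abundant per length and was higher in all 3 Bahd1-KO libraries, Cnga4 was nearly flat, and Rtp1 was highest in WT 3. None of the 6 passed the edgeR test for genotype, while DESeq2 called Gng13, whose difference changed sign with an offset for GC content and length.

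RefSeq promoter windows (build GRCm38.p6) were read for 4 of the 6, and no window was matched for Omp and Rtp1. They are shown because members of the EBF (Olf-1) family, transcription factors first found through olfactory neuron promoters, bind a palindrome built around CCCNNGGG. Each run covers bases upstream of the annotated start on the plus strand, and capitals mark CCCNNGGG, whose search covers both strands because it reads the same on each.
Gng13, chr17:25716922-25717170: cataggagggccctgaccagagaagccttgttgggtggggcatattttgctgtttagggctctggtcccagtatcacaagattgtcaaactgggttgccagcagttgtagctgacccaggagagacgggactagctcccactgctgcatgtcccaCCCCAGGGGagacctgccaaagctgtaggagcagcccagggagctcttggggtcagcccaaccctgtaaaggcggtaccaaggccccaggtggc
Cnga2, chrX:71991599-71991848: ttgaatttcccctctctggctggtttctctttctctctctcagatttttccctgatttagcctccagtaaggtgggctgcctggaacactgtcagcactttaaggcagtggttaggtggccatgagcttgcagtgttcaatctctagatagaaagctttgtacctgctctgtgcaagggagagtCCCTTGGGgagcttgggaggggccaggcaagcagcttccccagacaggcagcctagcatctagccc
Cnga4, chr7:105404318-105404567: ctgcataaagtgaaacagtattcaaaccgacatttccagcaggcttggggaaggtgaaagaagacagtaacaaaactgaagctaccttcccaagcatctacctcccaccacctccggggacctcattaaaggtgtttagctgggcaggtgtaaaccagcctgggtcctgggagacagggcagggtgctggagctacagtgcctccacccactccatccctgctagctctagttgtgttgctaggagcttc
Stoml3, chr3:53488457-53488652: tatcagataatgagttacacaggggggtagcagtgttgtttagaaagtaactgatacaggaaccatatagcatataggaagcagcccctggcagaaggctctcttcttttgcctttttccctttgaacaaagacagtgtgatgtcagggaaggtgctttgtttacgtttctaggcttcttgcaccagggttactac
The Gng13 window held 2 overlapping CCCNNGGG matches, whose first bases lay 95 and 94 bases before the start, and the Cnga2 window held 1, 66 bases before it. The windows of Cnga4 and Stoml3 held none, and TAATTA, a homeodomain core that also reads the same on both strands, was in none of the 4. Among 32851 mouse promoter windows of 250 bases, 11.8% held CCCNNGGG and 4.84% held TAATTA, and the windows printed for Gng13 and Stoml3 are shorter, at 249 and 196 bases. A match is a description of the letters and not a bound site. Gng13 and Cnga2, which share the match, had different library orders in the values that follow.

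Omp (ENSMUSG00000074006) lies on the minus strand of chr7 at 98143359 to 98145502 (GRCm38), inside an intron of Capn5 on the same strand with 0 shared exonic bases. It had 364, 11 and 5 counts in WT 1, WT 2 and WT 3 and 379, 338 and 8 counts in KO 1, KO 2 and KO 3. In CPM these are 3.98, 0.178 and 0.0682 in Bahd1-WT and 8.71, 3.55 and 0.138 in Bahd1-KO. One Bahd1-WT library and a pair of Bahd1-KO libraries were therefore high, 3 libraries had at most 11 counts, and the genotypes overlapped. Capn5, the gene around it, was highest in KO 2 (5025 counts) and had 1281 to 2567 counts in the other 5 libraries, an order unlike that of Omp.

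Within Bahd1-WT, Omp was 58.3-fold higher in WT 1 than in WT 3 (95% exact conditional binomial interval 24.8 to 181, counting error only). Within Bahd1-KO it was 63.0-fold higher in KO 1 than in KO 3 (31.7 to 147). Across the 22800 genes with at least 1 count in each Bahd1-WT library, the median ratio of highest to lowest library was 1.34, and 0.0351% of genes reached the ratio of Omp. In Bahd1-KO the median was 1.66 over 22197 genes, and 0.0496% reached it. Among genes with a mean of 10 to 300 counts, closer to Omp in depth, 0.0974% of 7186 genes in Bahd1-WT and 0.0772% of 6479 in Bahd1-KO did so. These shares count Omp itself, and genes with 0 counts in a library of the genotype, which have no ratio, are left out. Pairs of libraries from different genotypes could be nearer to each other than libraries of the same genotype. WT 1 exceeded KO 2 by 1.12-fold (0.964 to 1.30) and WT 2 exceeded KO 3 by 1.29-fold (0.472 to 3.69), and both intervals include 1. KO 1 stood above WT 1 by 2.19-fold (1.89 to 2.54) and above KO 2 by 2.45-fold (2.11 to 2.85).

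**Figure D1:**
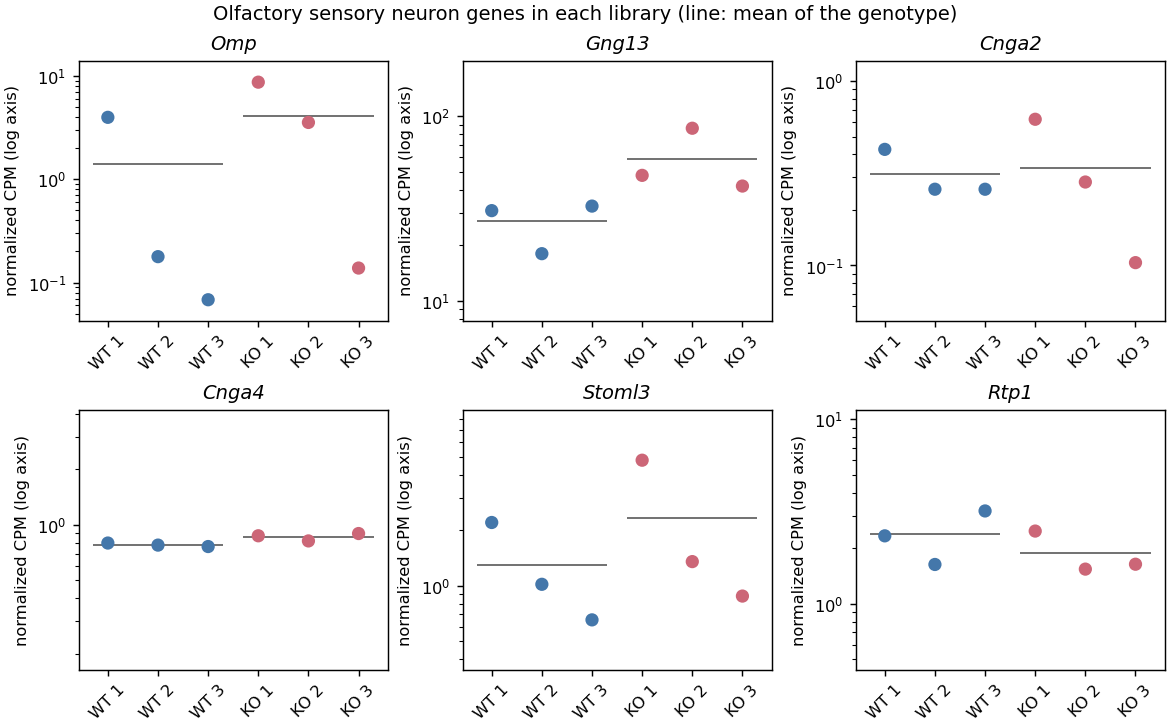
Normalized CPM of each of the 6 genes in each library on log axes, with Bahd1-WT in blue, Bahd1-KO in red and a line at the mean of each genotype (n = 3). Omp runs from 0.0682 in WT 3 to 8.71 in KO 1, Gng13 is higher in all 3 Bahd1-KO libraries, and Cnga4 stays between 0.764 and 0.898.

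Stoml3 (ENSMUSG00000027744, chr3:53488653-53508502, plus strand) followed the Omp order in all 6 libraries, with smaller steps. Its neighbouring steps from KO 2 down had intervals that include 1. They were KO 2 over WT 2 (0.975 to 1.82), WT 2 over KO 3 (0.788 to 1.71) and KO 3 over WT 3 (0.890 to 2.04). It had 202, 63 and 48 counts in WT 1, WT 2 and WT 3, or 2.21, 1.02 and 0.654 CPM. In KO 1, KO 2 and KO 3 it had 209, 129 and 51 counts, or 4.80, 1.35 and 0.881 CPM. The highest library exceeded the lowest by 3.37-fold in Bahd1-WT (2.45 to 4.72) and 5.45-fold in Bahd1-KO (4.0 to 7.56), and the genotypes overlapped. KO 1 exceeded WT 1 by 2.18-fold (1.78 to 2.65), close to the 2.19-fold seen for Omp in the same pair.

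Cnga2 (ENSMUSG00000005864, chrX:71991849-72010218, plus strand), the main subunit of the olfactory channel, was low throughout, with at most 39 counts in a library. It had 39, 16 and 19 counts in the Bahd1-WT libraries, or 0.426, 0.259 and 0.259 CPM. The Bahd1-KO libraries had 27, 27 and 6 counts, or 0.621, 0.284 and 0.104 CPM. Its highest libraries were WT 1 and KO 1, as for Omp, but KO 2 did not stand out. The 1.64-fold ratio within Bahd1-WT had an interval that includes 1 (0.928 to 3.01), while the 5.99-fold ratio of KO 1 to KO 3 did not (2.42 to 17.7).

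Cnga4 (ENSMUSG00000030897, chr7:105404568-105408742, plus strand), the modulatory subunit that assembles with Cnga2, did not share this order. Its counts were 73, 48 and 56 in Bahd1-WT, or 0.798, 0.777 and 0.764 CPM. In Bahd1-KO they were 38, 78 and 52, or 0.873, 0.819 and 0.898 CPM. All 3 Bahd1-KO values lay above the Bahd1-WT values, but none of the 15 pairs of libraries had a ratio whose interval excluded 1. The largest ratio within a genotype was 1.10-fold (0.757 to 1.58) in Bahd1-KO.

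Rtp1 (ENSMUSG00000033383, chr16:23429133-23433960, plus strand), the receptor chaperone, was highest in WT 3, where Omp was lowest. It had 214, 101 and 234 counts in Bahd1-WT, or 2.34, 1.64 and 3.19 CPM. In Bahd1-KO it had 108, 147 and 95 counts, or 2.48, 1.54 and 1.64 CPM. The highest library exceeded the lowest by 1.95-fold in Bahd1-WT (1.54 to 2.49) and 1.61-fold in Bahd1-KO (1.24 to 2.08).

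Gng13 (ENSMUSG00000025739, chr17:25717171-25719406, plus strand), the gamma subunit of the olfactory and taste G proteins, was the one gene of the 6 with at least 1111 counts in every library. It had 2818, 1111 and 2390 counts in Bahd1-WT, or 30.8, 18.0 and 32.6 CPM. In Bahd1-KO it had 2081, 8203 and 2423 counts, or 47.8, 86.1 and 41.9 CPM. Every Bahd1-KO library was above every Bahd1-WT library, and KO 2 was the highest, 2.06-fold above KO 3. With an offset for GC content and length, the KO 2 to KO 3 ratio was 0.985 and the genotype difference changed sign. The gene shares 399 exonic bases with Chtf18 on the opposite strand, which had 10 to 21 counts in the Bahd1-WT libraries and 20, 167 and 33 in KO 1, KO 2 and KO 3.

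Per kilobase of exon, Gng13 averaged 55.5 CPM per kb over the 6 libraries (23.3 to 111) and its lowest library was above the highest of any other member. Omp averaged 1.29 CPM per kb with a range of 0.0318 to 4.06, which spans the ranges of Stoml3 (0.847, from 0.304 to 2.23) and Rtp1 (0.685, from 0.495 to 1.02). Cnga4 averaged 0.309 CPM per kb (0.287 to 0.337) and Cnga2 0.105 (0.0335 to 0.201). The ranges of Cnga2 and Cnga4 did not overlap, whereas neighbours in the order from Omp to Rtp1 overlapped.

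The study asked whether loss of Bahd1 changes gene expression in the adult brain. In edgeR's quasi-likelihood test with Benjamini-Hochberg adjustment over all genes, 0 of the 6 genes had an adjusted p under 0.05 with at least a 2-fold change. The share called among all genes tested was 0.00834%, which is the 2 genes Bahd1 and the pseudogene Uqcrh-ps2. DESeq2 with and without its normal prior called 1 of the 6, Gng13, where it called 10.5% and 11.5% of all genes. At an unadjusted p under 0.05, 1 of the 6 was past the threshold, against 31.8% of all genes. It was higher in Bahd1-KO, against 19.9% of all genes, and 0 were lower, against 12%. With an offset for GC content and length, 0 of the 6 had an unadjusted p under 0.05, against 22.8% of all genes. By sign in the main fit, 5 of the 6 were higher, against 46.6% of all genes. Their median log2 fold change was 0.49, against -0.06 for all genes. With the offset, Gng13 and Cnga4 changed sign and the median over all genes was 0.11. Cnga2 and Stoml3 changed sign in some fits with a library left out. The genotypes did not overlap for 2 of the 6, Gng13 and Cnga4, against 39.8% of all genes.

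Gng13 had a mean of 58.6 ± 24.0 CPM in Bahd1-KO and 27.1 ± 7.96 CPM in Bahd1-WT (SD, n = 3 each). Its log2 fold change was 1.11 (SE 0.32, edgeR quasi-likelihood adjusted p = 0.0697 by Benjamini-Hochberg). With an offset for GC content and length in the same edgeR test it was -0.08 (SE 0.19, adjusted p = 0.837). Its exonic GC content is 59.0%, the highest of the 6. Without KO 1 the log2 fold change was 1.27 and passed the edgeR threshold (adjusted p = 0.0243).

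Omp averaged 4.13 ± 4.32 CPM in Bahd1-KO and 1.41 ± 2.23 CPM in Bahd1-WT (SD, n = 3 each), so each SD exceeded its mean. The log2 fold change of 1.52 had an SE of 1.41 (edgeR quasi-likelihood adjusted p = 0.470). Leaving out WT 1 raised it to 5.07 (adjusted p = 0.113), and leaving out KO 1 lowered it to 0.45 (adjusted p = 0.834), so its size moved with single libraries.

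Stoml3 averaged 2.35 ± 2.14 CPM in Bahd1-KO and 1.29 ± 0.812 CPM in Bahd1-WT (SD, n = 3 each), a log2 fold change of 0.83 (SE 0.65, edgeR quasi-likelihood adjusted p = 0.391) that turned to -0.17 without KO 1. Cnga2 averaged 0.336 ± 0.262 and 0.315 ± 0.0965 CPM (log2 fold change 0.03, SE 0.56), with a sign that changed between settings. Cnga4 averaged 0.864 ± 0.0405 and 0.780 ± 0.0172 CPM (log2 fold change 0.14, SE 0.23), with a sign that changed with the offset for GC content and length. Rtp1 averaged 1.89 ± 0.516 and 2.39 ± 0.779 CPM (log2 fold change -0.35, SE 0.31), and its log2 fold change ran from -0.56 to -0.08 with a library left out. Exact two-sided permutation tests of single genes, 3 libraries against 3, cannot go below 0.1, and gave 0.1 for Gng13 and Cnga4, 0.5 for Omp, 0.6 for Stoml3 and Rtp1 and 1.0 for Cnga2.

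**Figure D2:**
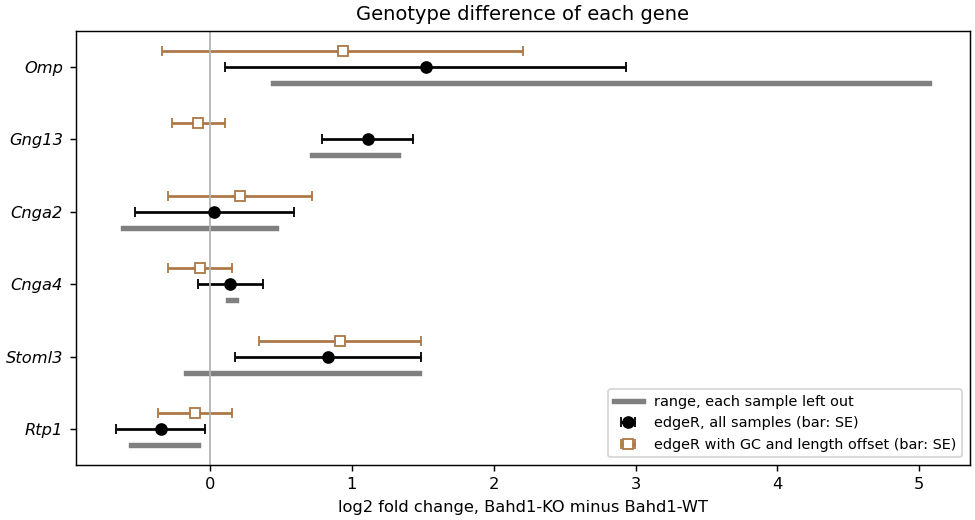
Log2 fold change of Bahd1-KO against Bahd1-WT for each gene, as the edgeR estimate with its SE (black), the estimate with the GC and length offset (open squares) and the range when each library is left out in turn (grey bars). Gng13 moves from 1.11 to -0.08 with the offset, and the range for Omp runs from 0.45 to 5.07.

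The cascade has other genes that the 6 do not cover. Of 9 such genes tested, 0 passed the edgeR threshold, 1 was higher at an unadjusted p under 0.05, against 19.9% of all genes, and 0 were lower, against 12%. The median log2 fold change was -0.04. DESeq2 called 1 of the 9 without its prior and 0 with it, against 11.5% and 10.5% of all genes. Gnal, the olfactory G alpha subunit that is also abundant in the striatum, had 12125 to 31929 counts, or 270 to 365 CPM. Adcy3, the cyclase of cilia, had 22.1, 15 and 22.2 CPM in Bahd1-WT and 27.3, 54.8 and 37.6 CPM in Bahd1-KO, higher in every Bahd1-KO library (log2 fold change 1.01, edgeR adjusted p = 0.0655). The genotypes did not overlap for 5 of the 9, against 39.8% of all genes, and the other 4 of these, Gnal, Ric8b, Pde1c and Ano2, were lower in every Bahd1-KO library. Cngb1, the partner of Cnga2 and Cnga4 in the channel, had 1.81, 1.38 and 0.900 CPM in Bahd1-WT and 1.17, 1.52 and 1.28 CPM in Bahd1-KO. Its highest library was WT 1, but its genotype means, 1.36 and 1.32 CPM, were close beside SDs of 0.457 and 0.180.

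Of 12 further genes of sensory neuron identity and axons, 0 passed the edgeR threshold, 2 were higher at an unadjusted p under 0.05 (Kirrel3 and Ebf4), against 19.9% of all genes, and 0 were lower, against 12%. The median log2 fold change was 0.03. DESeq2 called 1 of the 12 without its prior and 0 with it, against 11.5% and 10.5% of all genes. One of them, S100a5, a calcium-binding protein of olfactory sensory neurons that was singled out after its values were seen, split the libraries as Omp did. It had 711, 5 and 7 counts in Bahd1-WT and 491, 199 and 0 in Bahd1-KO. WT 1 was 95.9-fold above WT 2, and 0 counts in KO 3 allows at most 0.0518 CPM. The more abundant Ncam2 and Ebf1, which brain neurons and other cells also express, varied from 34.4 to 78.1 CPM and from 25.9 to 41.2 CPM.

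Most genes listed for olfactory bulb neurons shared 2 features of the library order of Omp. These were taken from Omp as WT 1 highest among Bahd1-WT and KO 3 lowest among Bahd1-KO. Beside Omp, which defined it, this pattern held for Stoml3 and Cnga2 of the 6 genes, for 7 of 8 olfactory bulb neuron genes, and for 7.46% of all genes tested. It also held for 2 of 3 olfactory ensheathing glia genes, Fabp7 and Frzb, for 1 of 9 other cascade genes, Gfy, and for 1 of 12 identity and axon genes, S100a5. Outside the bulb it held for 3 of 5 supporting cell and gland genes of the nasal epithelium and 2 of 7 airway and lung genes. Among receptor genes tested, it held for 8 of 52 olfactory and 2 of 15 vomeronasal ones. Of immature neuron and basal cell genes, 1 of 6 had it. The pattern held for 0 of 5 Purkinje cell genes, 0 of 6 pituitary genes and 0 of 6 genes of brain neurons and glia. The summed level of the 8 bulb genes was 149, 54.9 and 54.3 CPM in WT 1, WT 2 and WT 3 and 156, 117 and 64.5 CPM in KO 1, KO 2 and KO 3, and whether it bears on the Omp level was not tested. None of the 8 passed the edgeR threshold for genotype, and 2, Th and Lbhd2, were higher at an unadjusted p under 0.05, against 19.9% of all genes. DESeq2 called 2 of the 8 without its prior and 1 with it, against 11.5% and 10.5% of all genes.

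Tbx21, a transcription factor of mitral and tufted cells, the output neurons of the bulb, had 140, 7 and 12 counts in Bahd1-WT and 87, 129 and 10 in Bahd1-KO. Cdhr1, a cadherin of the same cells, had 50.4, 12.3 and 15.2 CPM in Bahd1-WT and 50.8, 22.3 and 11.1 CPM in Bahd1-KO. Both were high in WT 1 and KO 1 and low in WT 2, WT 3 and KO 3, and KO 2 was high for Tbx21 and intermediate for Cdhr1. Tshz1 and Th shared the pattern but were highest in KO 2. Sp8, a factor of bulb interneurons, had 1327, 155 and 194 counts in Bahd1-WT and 759, 365 and 65 in Bahd1-KO. Th, which makes dopamine in periglomerular cells and also in the midbrain, was 10.5, 3.55 and 3.11 CPM in Bahd1-WT but was highest in KO 2 (22.9 CPM). Within a genotype, the ratios of highest to lowest library for the 8 bulb genes were below those of Omp. They ran from 1.39 for Tshz1 in Bahd1-KO to 28.0 for Lbhd2 in Bahd1-WT, which rests on 1 count in WT 3 (interval 4.71 to 1139), and the next was 15.5 for Sp8 in Bahd1-KO.

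Among 19232 genes with at least 50 counts in all, the profile nearest to that of Omp was Ms4a15, a member of the membrane-spanning 4A family. Its root mean square difference was 0.41 on the log2(CPM + 0.5) scale over the 6 libraries, each gene centred on its mean. It had 412, 9 and 30 counts in Bahd1-WT and 249, 239 and 3 in Bahd1-KO. Scgn, the calcium-binding protein secretagogin, came next (0.47), followed by S100a5 (0.50) and Doc2g (0.63), a relative of the synaptic Doc2 proteins. Frmd7, Shisa3, Tbx21, Sp8, Cdhr1 and Sp7 made up the rest of the nearest 10, so 4 of these 10 were on the list of 8 bulb genes. This search by single gene was added after values were seen.

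**Figure D3:**
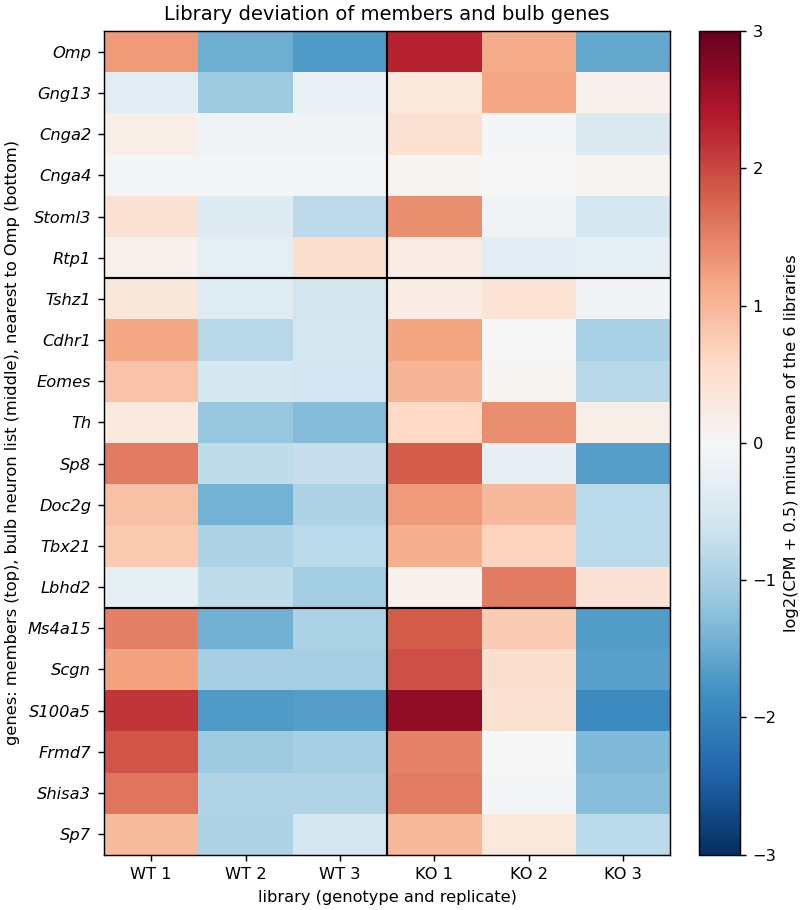
Deviation of each gene from its own mean over the 6 libraries on the log2(CPM + 0.5) scale (red above, blue below), for the 6 genes, the 8 bulb genes and the genes nearest to Omp that are on neither list. WT 1 and KO 1 are red and WT 2, WT 3 and KO 3 blue for Omp, Stoml3 and most bulb genes, whereas Gng13 is red in all 3 Bahd1-KO libraries and Cnga4 is near 0.

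Among the genes closest to the mean profile of all 6 members were Gm8292, a processed pseudogene, Nmb, Kcnk15, Sp9, Fam19a3, Zar1, Alox12, Fabp7 and Klhl30, with root mean square differences of 0.09 to 0.20. Nmb, the peptide neuromedin B, had 134, 35 and 55 counts in Bahd1-WT and 95, 182 and 45 in Bahd1-KO. Sp9, a factor of interneuron development, had 688, 195 and 253 counts in Bahd1-WT and 347, 568 and 192 in Bahd1-KO. Both had their highest CPM in WT 1, KO 1 and KO 2. Taken singly, the nearest gene was Eomes among protein-coding genes for Stoml3 (0.29), Adcy4 for Gng13 (0.09), whose 10 nearest genes, Rpl37, Pfdn5 and Rps23 among them, were all highest in KO 2, Prok2 for Cnga2 (0.06) and Bcat1 for Cnga4 (0.02).

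Odorant receptors, of which each sensory neuron is thought to use a single gene, were sparse. The table held 1107 olfactory receptor (Olfr) genes, of which 747 had 0 counts in every library and 52 were tested, with reads from near-identical receptors not always separable. Genes with at least 1 count numbered 213, 98 and 91 in WT 1, WT 2 and WT 3 and 157, 102 and 78 in KO 1, KO 2 and KO 3. At the depth of KO 1, the expected numbers were 149.9, 82.1 and 71.9 in Bahd1-WT and 157, 67.5 and 68.5 in Bahd1-KO. WT 1 and KO 1, the libraries highest in Omp, thus stood above the others in receptor genes detected, while KO 2, which was also high in Omp, did not. The summed receptor level was also highest in WT 1 and KO 1 and lowest in KO 2, with narrower differences, at 20.5, 17.0 and 15 CPM in Bahd1-WT and 18.0, 12.7 and 14.7 CPM in Bahd1-KO. A single gene gave 293 to 638 of the 784 to 1878 receptor counts of a library. For 331 vomeronasal receptor genes, 19.7 to 26.0 were expected at the same depth, with no library apart. Of the 52 Olfr genes tested, 0 passed the edgeR threshold, 1 was higher and 8 were lower at an unadjusted p under 0.05, against 19.9% and 12% of all genes. DESeq2 called 0 of the 52, against 11.5% and 10.5% of all genes without and with its prior.

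**Figure D4:**
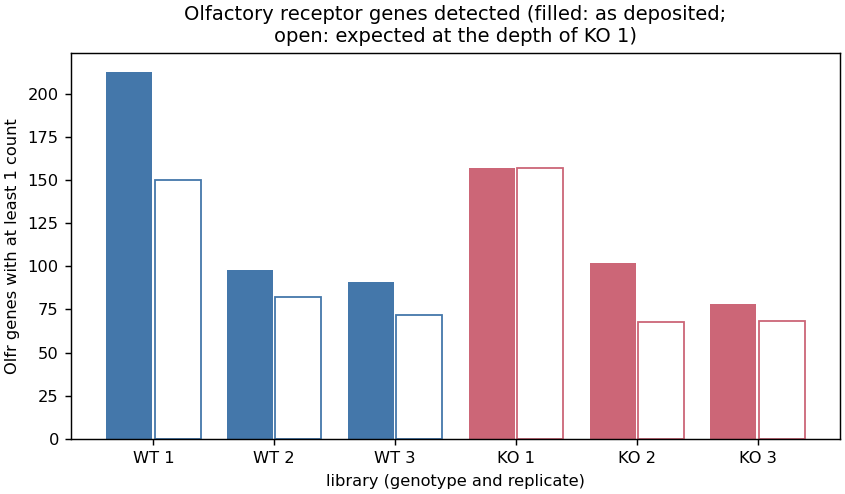
Number of Olfr genes with at least 1 count in each library, as deposited (filled bars) and as computed for each library at the depth of KO 1 (open bars). At equal depth WT 1 and KO 1 reach 149.9 and 157 genes, and the other 4 libraries lie between 67.5 and 82.1.

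Several markers of the nasal epithelium itself were at or near 0. Of 9 genes of its supporting cells and glands, Ugt2a1 and Bpifb9a, an enzyme and a secreted protein of that tissue, had 0 counts in all 6 libraries. Cyp2g1, the olfactory cytochrome, had 4 counts in WT 1 and 0 elsewhere. The odorant-binding proteins Obp1a and Obp2a had 18 and 5 counts in WT 1 and at most 1 in any other library. Cyp2a5 and Obp2b of the same list had counts in every library. Cyp2a5 had 83, 20 and 24 in Bahd1-WT and 19, 38 and 16 in Bahd1-KO, and Obp2b had 2 to 6. The summed level of the 9 genes was 18.0, 5.6 and 2.75 CPM in Bahd1-WT and 2.78, 3.23 and 2.71 CPM in Bahd1-KO. KO 1 and KO 2, with high Omp, exceeded KO 3 in this sum by under 1 CPM. Whether the sum bears on the Omp level was not tested. Sec14l3 and Cbr2, which airway epithelium also expresses, made up most of the sum, with 1048 and 481 counts in WT 1. Sec14l3 was the 1 of 5 tested that was lower at an unadjusted p under 0.05 (log2 fold change -1.86, edgeR adjusted p = 0.0707), against 12% of all genes, and 0 of the 5 were higher. DESeq2 called 1 of the 5, against 11.5% and 10.5% of all genes without and with its prior. Among 7 genes of immature sensory neurons and basal cells, 6 were tested and 0 passed in edgeR or DESeq2, with Krt5 alone higher at an unadjusted p under 0.05, against 19.9% of all genes (1 to 4 counts in Bahd1-WT and 14, 8 and 3 in KO 1, KO 2 and KO 3).

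WT 1 also differed from the other libraries in genes of other tissues. Airway and lung genes summed to 102, 24.8 and 2.28 CPM in WT 1, WT 2 and WT 3 and to 0.621, 1.76 and 0.933 CPM in KO 1, KO 2 and KO 3. Pituitary genes summed to 19.0 CPM in WT 1 and 42.5 CPM in KO 3 and to 0.184 to 3.93 CPM in the other 4 libraries. The part of these tissues in the WT 1 values of Omp, Stoml3 and Cnga2 was not tested. Genes of brain neurons and glia, which check the labelled tissue, summed to 8915 to 10906 CPM.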

How the data were processed

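RNA-seq read counts from 1 hemisphere of 3 Bahd1-WT and 3 Bahd1-KO adult mice were analysed, grouped by their labels. Per the labels and the methods, the authors trimmed reads with cutadapt 1.11, aligned them to GRCm38 with STAR 2.5.0a (the methods also name Tophat2) and counted exons by strand with featureCounts 1.4.6-p3, and they deposited whole-number counts per gene without normalization. The table held 0 columns of samples from elsewhere. The authors sequenced each library in technical replicates, deposited as 1 column.

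Genes with a summed count of at least 10 were kept (23975 of 53801). The test was edgeR 4.0.16 (TMM, quasi-likelihood, Benjamini-Hochberg, R 4.3.3) with genotype as the only factor, and DESeq2 1.42.0 was an alternative. CPM values use TMM-scaled library sizes. Intervals of the ratio of 2 counts are exact conditional binomial (Clopper-Pearson, 95%) and, like the floor of 3 counts, cover counting error only. The edgeR and DESeq2 p-values set the genotype difference against variation between libraries of the same genotype, estimated with information shared across genes. Likeness was the root mean square difference of centred log2(CPM + 0.5) profiles over genes with at least 50 counts. The expected number of receptor genes at the smallest depth was computed from the chance of each gene keeping at least 1 count. The offset used natural splines of GC content (5 degrees of freedom) and log length (3), from GENCODE M21. The main edgeR fit was tested on simulated counts.

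The 6 genes and all lists were chosen with earlier results of these data known. The rule for named genes took the 6 genes, Bahd1, overlapping genes, the 10 genes closest to the mean profile of the 6 and, from each list, 2 to 4 genes of highest mean CPM. One gene that the rule names is not reported here. Other list genes named, and the searches for single genes, were chosen after values were seen. Alternatives were other scalings and filters, DESeq2, the offset, a replicate block and leaving out each library. Same-numbered mice did not deviate together (correlations of deviations from the genotype means -0.53 to -0.11), and the numbers were not treated as pairs. Whether same-numbered mice shared a litter or a batch was not tested.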

Additional observations from a re-analysis of the deposited data

How the results depend on the processing

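Over all genes, 2 passed the threshold in the edgeR fit, and the number was 2007 with total counts as library sizes, 2770 without the filter on low counts, 2761 and 2522 with DESeq2 without and with its normal prior, 7 with the replicate block, 4 with the GC and length offset, 12 with both, and 0 to 3988 when a library was left out, the highest without Bahd1-KO replicate 1. Of the 6 olfactory genes, 1 (Gng13) passed without the filter (adjusted p = 0.0160), with DESeq2 without the prior (0.00897) and with it (0.00899), and without Bahd1-KO replicate 1 (0.0243), and 0 to 1 passed over all leave-one-out fits. The adjusted p of Gng13 over all alternatives ran from 0.00897 to 0.890. Of the 151 genes on the other lists tested in the edgeR fit, 0 passed. With total counts 8 passed, and without the filter, which tests more genes, 15 passed. DESeq2 called 14 of the 151 without the prior and 9 with it, against 11.5% and 10.5% of all genes. With the replicate block 3 passed, with the block and offset 3, and with a library left out 0 to 16. The sign reversed for Gng13 (-0.082 with the offset, -0.070 with offset and block), for Cnga2 (-0.10 with upper-quartile factors, -0.093 with the replicate block, and -0.61 to 0.47 with libraries left out), for Cnga4 (-0.067 with the offset, -0.066 with offset and block) and for Stoml3 (-0.17 to 1.47 with libraries left out, the lowest without Bahd1-KO replicate 1). The KO 2 to KO 3 ratio of Gng13 was 0.985 with the offset, below 1. The median log2 fold change over all genes was -0.06, -0.20 with upper-quartile factors and 0.11 with the offset, so small differences move with the scaling. The cause of these changes was not tested. Replicate numbers are shared between the genotypes and were not treated as pairs in the main fit. With the block, Omp had a log2 fold change of 2.19 (edgeR adjusted p = 0.125) and stayed short of the threshold. The direction of Omp and of Rtp1 was kept in all alternatives. At 5 to 39 counts in the 3 low libraries of Omp and in all libraries of Cnga2, depth limits what can be seen.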

Other observations

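Relatives of the 6 genes were also measured. Among 4 stomatin relatives, Stoml1 and Stoml2, a mitochondrial protein, were higher in every Bahd1-KO library, where the genotypes did not overlap for 39.8% of all genes. DESeq2 called 2 of the 4 without its prior and 1 with it, against 11.5% and 10.5% of all genes. Stoml1 had 13.2, 8.75 and 9.11 CPM in Bahd1-WT and 19.0, 48.5 and 25.9 CPM in Bahd1-KO (log2 fold change 1.59, SE 0.35, edgeR adjusted p = 0.0634). Stom, the founding member, differed by 0.10 on the log2 scale (SE 0.17). Neither Stoml1 nor Stoml2 shared the order of Stoml3, and both were highest in KO 2.

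Of 11 G protein gamma subunit genes, 10 were tested and 0 passed in edgeR or DESeq2. DESeq2 called 11.5% and 10.5% of all genes without and with its prior. At an unadjusted p under 0.05, 2 were higher (Gng3 and Gng7), against 19.9% of all genes, and 1 was lower (Gng2), against 12%. Gng2, a widely used neuronal subunit, averaged 368 ± 43.0 CPM in Bahd1-WT and 248 ± 56.1 CPM in Bahd1-KO (SD, n = 3 each). Gng4 had 162, 75.8 and 76.9 CPM in Bahd1-WT and 154, 84.7 and 55.2 CPM in Bahd1-KO, with WT 1 highest in Bahd1-WT and KO 3 lowest in Bahd1-KO, as for Omp. Rtp4, an interferon-responsive relative of Rtp1, was lower in every Bahd1-KO library (4.34, 5.57 and 4.25 CPM against 3.49, 2.80 and 3.01 CPM, log2 fold change -0.61, edgeR adjusted p = 0.108). Of the other cyclic nucleotide-gated channel genes, Cnga3, the cone subunit, had 11 to 39 counts and Cnga1, the rod subunit, had 0 to 4.

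Of the 5 Purkinje cell genes, Pcp2 stood apart: KO 2 had 8966 counts, KO 3 had 1763 and KO 1 had 674, while the Bahd1-WT libraries had 282 to 813 (log2 fold change 2.90, edgeR adjusted p = 0.0634), while Calb1 and Car8 of the same cells had log2 fold changes of -0.50 and -0.33. Of the 7 airway and lung genes, 5 were lower in Bahd1-KO at an unadjusted p under 0.05, against 12% of all genes. None of the 7 passed the edgeR threshold. In DESeq2, 4 passed without its prior and 3 with it, against 11.5% and 10.5% of all genes. With the replicate block 3 passed, against 7 of all 23975 genes. Without the filter on low counts 5 passed, against 2770 of 32795 genes. Scgb1a1, the club cell secretoglobin, had 4448, 922 and 69 counts in Bahd1-WT and 5, 1 and 4 in Bahd1-KO. Of the pituitary genes, Gh had 579 counts in WT 1, 1517 in KO 3 and at most 1 elsewhere.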
